A study of Olea europaea with 6 samples.

Results

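Olive leaves were sampled in July, as juvenile leaves, and in November, as mature leaves, in a bearing and in a non-bearing year, and 88 of the 5543 olive expressed sequence tags (ESTs) on the array (1.59%) had lower signal in the mature leaves in both years. An EST is a partial read of a transcript, and each stood on the array as a set of probes. The 88 were chosen from measured values: the mean log2 signal had to be lower in mature than in juvenile leaves by at least 1 in each year, the highest and the lowest leaf array had to differ by at least 2, and the on-year mature array was not allowed to lie 2 or more below every other leaf array. A difference of 1 on this scale is a fold of 2 in signal. Of the olive ESTs, 148 (2.67%) had both differences, 120 of these also had the span and 91 met every condition. Another 10 ESTs were left out by name, 3 of which met the conditions. The contrast between mature and juvenile leaves is therefore given below as a description, without a test.

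Total RNA of the cultivar Ayvalık was hybridized with Cy3 label to 11 one-colour arrays in 6 groups: on-year mature leaf (ON-M, November), on-year juvenile leaf (ON-J, July), off-year mature leaf (OFF-M, November), off-year juvenile leaf (OFF-J, July), ripe fruit (RF, October) and unripe fruit (UF, July). In the files used each group had 2 arrays except ON-M, which had 1, so no spread is known for ON-M; the study's methods describe replicates for every group, and a second ON-M array was not analysed here. The on-year leaves came from the calendar year before that of the off-year leaves and from a neighbouring tree, so that bearing year, calendar year and tree cannot be told apart, and the fruits came from a bearing tree in the later year. Stage and month of harvest cannot be told apart either. The methods call the replicates biological but do not say that they came from separate trees. A p-value here therefore reflects just the spread between arrays within groups, pooled over fruit and leaf groups. RF arrays spread more: the median standard deviation over all olive ESTs was 0.224 in RF and 0.0762 in UF. In the leaf groups with 2 arrays it was 0.0983 to 0.165. The pooled fit may thus understate the spread of RF in p-values and standard errors.

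As a leaf matures it stops expanding and its epidermis completes the cuticle, a layer of cutin and waxes that seals the surface. Young expanding tissue is known for active wall building, for aquaporins, the membrane channels that let water into growing cells, and for chaperones, which help new proteins fold. Olive leaves and fruits also coat their surface with triterpenoids such as oleanolic acid. Bulk organs were measured, so that fewer cells of a type and less RNA per cell cannot be told apart.

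The ESTs carry accession numbers but no gene names, and the RefSeq gene table matched 0 of them, so that members are described by the biological processes of the study's own tables. Of the 88 members, 46 had a named process, 34 were listed as unknown and 8 were not in those tables. The tables used were drawn up from differences among these same leaf samples, so the processes are not independent evidence of a direction in leaves. Another member with exactly the same terms existed for 27 members, in 12 groups, and some of these may be ESTs of the same transcript. By library of origin, 68 members (77.3%) came from leaves and fruits, 14 (15.9%) from fruitlets, 4 (4.55%) from flowers and 2 (2.27%) from other libraries, whereas these libraries gave 66.9%, 18.4%, 13.7% and 0.631% of all olive ESTs.

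The median over all olive ESTs was 10.66 on the ON-M array, between 10.80 and 11.43 on the other leaf arrays, 9.83 and 10.22 on the RF arrays and 11.04 on both UF arrays. A random control set read 5.18 to 5.48, and values below it are not a measured level. Within a group the arrays had r2 of 0.988 to 0.995 across olive ESTs, except the RF arrays with 0.964. The 6 olive ESTs whose terms held the words photosynthesis, photosystem or chlorophyll had medians of 9.56 in ON-M, 11.68 in ON-J, 11.13 in OFF-M, 11.01 in OFF-J, 6.16 in RF and 9.23 in UF, the lowest in RF. ESTs of the fruitlet library had medians of 11.97 and 12.15 in RF and of 12.37 and 12.43 in UF, against 11.64 to 12.14 on the leaf arrays. Signal depends on the probes as well as on the transcript, so levels of different ESTs are not read as relative amounts of RNA.

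In the on year the median difference of ON-M from ON-J over the members was -2.93 (range -4.72 to -1.38), where all olive ESTs had a median difference of -0.20 and 1043 of them (18.8%) were lower by at least 1. In the off year the median difference of OFF-M from OFF-J was -1.43 (range -2.65 to -1.02), where all olive ESTs had 0.11 and 179 (3.23%) were lower by at least 1. A difference of at least 2 was seen in 82 members in the on year and in 8 in the off year. The on-year difference was the larger in 87 of the 88 members, against 73.8% of all olive ESTs, and the exception was GO244785_1. For the other 87 the off-year difference was thus the one closer to the threshold of 1.

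**Figure D1:**
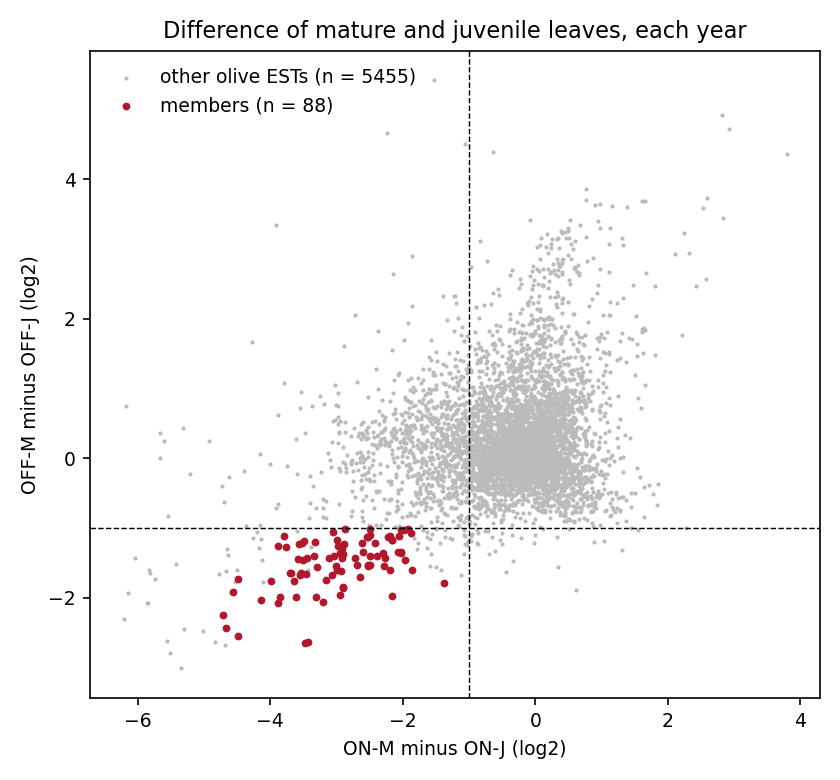
Each point is an olive EST, with the on-year difference of mature and juvenile leaves on the x axis and the off-year difference on the y axis, both on the log2 scale, and dashed lines at -1. The 88 members, in red, lie in the lower left corner next to the off-year line, with a wider spread along the on-year axis (-4.72 to -1.38) than along the off-year axis (-2.65 to -1.02). Grey points in that corner failed the span or the ON-M condition, or were left out by name.

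By array, the members' median was 9.51 in ON-M against 12.42 and 12.56 in ON-J, and 10.56 and 10.69 in OFF-M against 12.39 and 12.25 in OFF-J. In each of the 88 members all 3 mature arrays lay below all 4 juvenile arrays, a pattern held by 792 of the 5543 olive ESTs (14.3%). This separation was not itself a condition of the choice, but the same arrays set it.

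**Figure D2:**
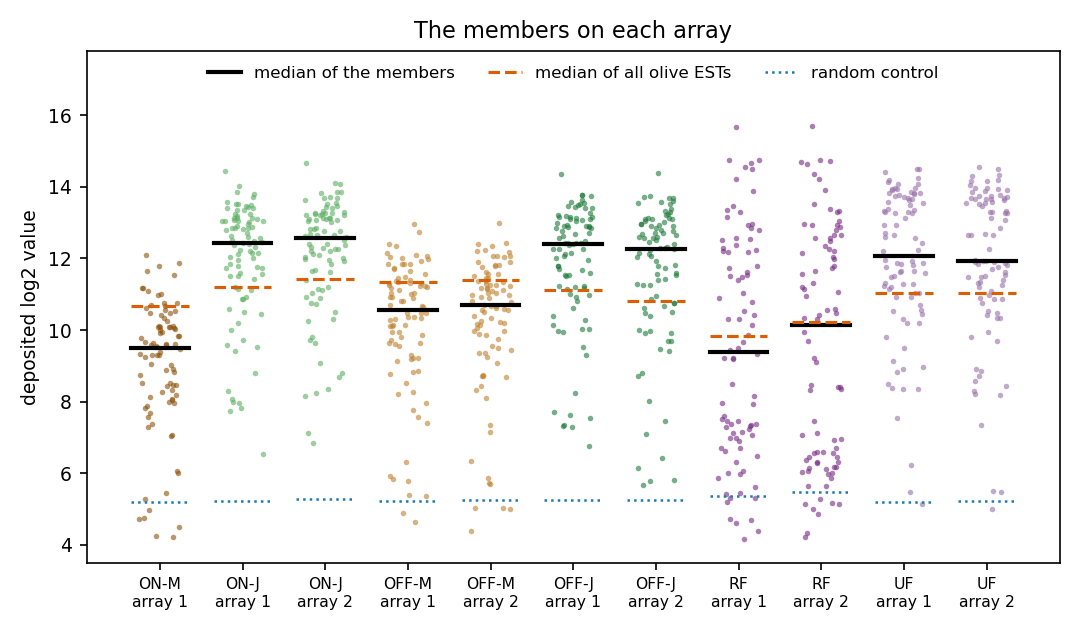
Each point is a member and each column an array, with the deposited log2 value on the y axis, black bars for the median of the 88 members, dashed orange bars for the median of all olive ESTs and dotted blue bars for the random control. The members' medians lie below the olive medians on the 3 mature leaf and both RF arrays and above them on the 4 juvenile leaf and both UF arrays.

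Mean level over the juvenile leaves had a median of 12.40 over the members, against 11.14 over all olive ESTs, and 76 members were at 10 or above while 7 were under 8. GO243323_1, of unknown process, had the highest signal in juvenile leaves. It read 11.64 in ON-M against 14.45 and 14.65 in ON-J, and 12.97 and 13.00 in OFF-M against 14.36 and 14.37 in OFF-J. At the other end stood FN997922_1, with 4.97 in ON-M against 6.55 and 7.13 in ON-J, and 5.39 and 5.02 in OFF-M against 6.77 and 5.77 in OFF-J. Its ON-M value and 1 of its OFF-M values lay below the random control, so that its differences depend on the background. In 6 members at least 1 leaf array was below that control.

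Members also had less signal in mature leaves of the on year than of the off year. The ON-M array lay below both OFF-M arrays in 86 members, a pattern shared by 65.3% of all olive ESTs, and the median of ON-M minus OFF-M was -1.18 (range -2.08 to 0.13) against -0.26 over all olive ESTs. With arrays centred on olive medians, an alternative chosen after seeing the data, the median was -0.47 over the members and 0.44 over all olive ESTs, and the ON-M array lay below both OFF-M arrays in 61 members and in 22.3% of olive ESTs. The choice of members shaped these values. It required ON-M to lie below ON-J, and it dropped 29 ESTs with ON-M 2 or more below every other leaf array. In juvenile leaves the years were closer, with a median of ON-J minus OFF-J of 0.27 (range -0.44 to 1.74) against 0.18 over all olive ESTs, and 80 members differed by under 1. The widest gap between the years' differences was that of GO244883_1, a fatty acid metabolism EST, at -4.49 in the on year and -1.73 in the off year. FN998379_1 followed with -3.79 and -1.12, and GO243169_1 with -4.56 and -1.92. The smallest gaps were those of GO243581_1 (-2.16 and -1.97) and GO243216_1 (-1.86 and -1.61), and in GO244785_1 the off-year difference was the larger (-1.38 and -1.79). Because ON-M rests on 1 array, no test was made of the gap between years.

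The strongest member by its smaller difference was FL684184_1, annotated with protein folding and heat acclimation. It read 10.01 in ON-M against 13.35 and 13.62 in ON-J, and 10.34 and 10.68 in OFF-M against 13.20 and 13.11 in OFF-J. All mature arrays were low and all juvenile arrays high, with differences of -3.47 and -2.65. GO245517_1, annotated with regulation of transcription, regulation of secondary wall formation and response to abscisic acid, read 7.81 in ON-M against 12.21 and 12.39 in ON-J. Its off-year values were 9.73 and 10.04 in OFF-M against 12.43 and 12.45 in OFF-J. ON-M was the lowest leaf array of GO245517_1, as of 86 of the 88 members, and this EST was the only member with a transcription term.

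Of the other 4 members that led by this measure, 3 were of unknown process. FL683438_1 had differences of -3.43 in the on year and -2.64 in the off year, GO243932_1 of -4.66 and -2.44, and GO245492_1 of -4.72 and -2.26. The fourth, FN998508_1, carried terms for seed coat mucilage and proteolysis and read 9.31 in ON-M against 13.04 and 13.33 in ON-J, and 10.81 and 11.05 in OFF-M against 13.05 and 12.97 in OFF-J. At the threshold on the off-year difference, the members just inside were GO244737_1, GO243302_1 and FL683586_1, each at -1.02. Just outside were GO243655_1 at -0.99, GO245380_1 at -0.97 and K20_K69contig at -0.96.

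Lipid, cutin and wax processes were annotated to more members than any other of the lists, 12 out of 34 olive ESTs so annotated, and 24 of the 34 were lower by at least 1 in both years. These 12 had median differences of -3.21 in the on year and -1.44 in the off year. All lists were drawn from the study's leaf tables, which held 531 olive ESTs. Among these were 46 members with a process and 34 of unknown process. Shares of a list, here and below, are therefore not comparable with the 1.59% of all olive ESTs that were members. GO243798_1, annotated with cuticle development and very long-chain fatty acid metabolism, read 10.08 in ON-M against 13.40 and 13.43 in ON-J, and 11.65 and 11.77 in OFF-M against 13.15 and 13.10 in OFF-J. GO243189_1 and GO243678_1 shared terms for cutin synthesis and trichome formation, trichomes being the hairs of the leaf surface. GO243189_1 read 8.51 in ON-M against 11.84 and 12.21 in ON-J, and 10.35 and 10.67 in OFF-M against 12.16 and 11.79 in OFF-J. GO243678_1 read 10.71 in ON-M against 13.58 and 13.71 in ON-J, and 11.86 and 12.03 in OFF-M against 13.55 and 13.58 in OFF-J. In both ESTs ON-M was the lowest leaf array, as in 86 of the 88 members. Among wax-annotated ESTs, GO243362_1 had differences of -3.31 and -1.99, GO243584_1 of -2.90 and -1.84, FN998464_1 of -2.96 and -1.35, and GO243147_1, which shared all terms with FN998464_1, of -3.33 and -1.20. GO244894_1, of lipid metabolism, had -3.12 and -1.43, and GO244589_1, of lipid transport, had -2.52 and -1.55.

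Of the 8 olive ESTs annotated with water transport, 4 were members, and they had median differences of -3.55 in the on year and -1.93 in the off year. GO244854_1 and GO244599_1 also carried a urea transport term, and GO245690_1 and GO245680_1 a response to abscisic acid, the hormone of water shortage. GO244854_1 read 8.51 in ON-M against 12.13 and 12.59 in ON-J, and 10.13 and 10.20 in OFF-M against 12.26 and 12.05 in OFF-J. GO245690_1 read 9.31 in ON-M against 12.14 and 12.27 in ON-J, and 9.94 and 10.17 in OFF-M against 12.12 and 11.73 in OFF-J. In leaves these 4 ESTs had ON-M below OFF-M and both below the juvenile leaves, an order that nearly all members had. ON-M lay below both OFF-M arrays in 86 of the 88 members, and the mature arrays lay below the juvenile arrays in all 88.

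Protein folding and heat gave 6 members out of 9 olive ESTs so annotated. FL683700_1, FL684093_1 and FL684306_1 shared a full set of terms and may overlap in transcript, with on-year differences of -3.07, -2.19 and -2.99. FL684093_1 read 11.87 in ON-M against 14.03 and 14.10 in ON-J, and 12.07 and 12.19 in OFF-M against 13.76 and 13.71 in OFF-J. GO244160_1 had differences of -2.73 and -1.43. FL684170_1 was near the floor and variable, with 4.24 in ON-M against 7.96 and 8.81 in ON-J, and 4.90 and 4.39 in OFF-M against 7.55 and 5.81 in OFF-J. Its mature arrays were all below the random control.

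Cell wall and trichome terms marked 7 members of 20 olive ESTs. GO243690_1, of pectin and cellulose metabolism, read 10.12 in ON-M against 12.57 and 12.66 in ON-J, and 11.35 and 11.23 in OFF-M against 12.67 and 12.72 in OFF-J. Triterpenoid synthesis was carried by GO244544_1, GO243666_1 and GO244699_1, which shared all terms and were 3 of the 13 olive ESTs on terpenoids and sterols. GO244544_1 read 11.17 in ON-M against 13.42 and 13.51 in ON-J, and 12.39 and 12.34 in OFF-M against 13.76 and 13.68 in OFF-J. The off-year differences of the 3 were -1.36, -1.35 and -1.18.

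Defense and biotic stress terms were on 10 members of 36 olive ESTs. GO243156_1 and GO244678_1 shared their terms. GO243156_1 read 10.09 in ON-M against 13.72 and 13.82 in ON-J, and 12.10 and 11.91 in OFF-M against 13.63 and 13.68 in OFF-J, and GO244678_1 had differences of -3.01 and -1.55. Other members with a process were GO245628_1 and GO243464_1 (response to stress), GO244946_1 (metal ion transport), GO244186_1 (protein phosphorylation) and GO244188_1 (oxidation-reduction), with on-year differences from -3.15 to -2.28. The photosynthesis list, which also takes chloroplast, thylakoid and photorespiration terms, gave 1 member of 8 olive ESTs, GO244424_1, at -3.05 and -1.05. Carbohydrate metabolism, the largest of the 17 annotation lists with 108 olive ESTs, gave 0 members, and 1 of the 108 was lower by at least 1 in both years.

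The fruit arrays took no part in the choice of members, so RF against UF could be tested. It asks how ESTs that were low in older leaves behaved in older fruit. By limma, at a Benjamini-Hochberg adjusted p under 0.05 over all 54615 probe sets and a log2 difference of at least 2, 48 members (54.5%) were lower in RF than in UF, against a background of 17.3% of all olive ESTs, and 4 (4.55%) were higher, against a background of 3.73%. The remaining 36 did not pass, 23 of them at an adjusted p under 0.05 with a smaller difference. In the counts of ESTs in fruit below, those that fell, rose or were higher are those that passed both conditions. The median of RF minus UF was -2.15 over the members and -0.11 over all olive ESTs. Both RF arrays lay below both UF arrays in 67 of the 88 members, against 44.8% of all olive ESTs, and above them in 17 of the 88, against 37.9%. The members' medians were 9.39 and 10.13 on the RF arrays and 12.08 and 11.93 on the UF arrays.

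With each array centred on its olive median, which shifts the median of all olive ESTs to 0.90, 36 members were lower and 9 higher, against backgrounds of 10.7% and 16.1% of olive ESTs, and the members' median was -1.14. The RF arrays had the lowest olive medians of the series, 9.83 and 10.22 against 11.04 in UF. The members also had more signal in UF than olive ESTs at large, with a median over the members of 12.08 and 11.93 against 11.04, and the part of signal level in the members' share was not tested.

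**Figure D3:**
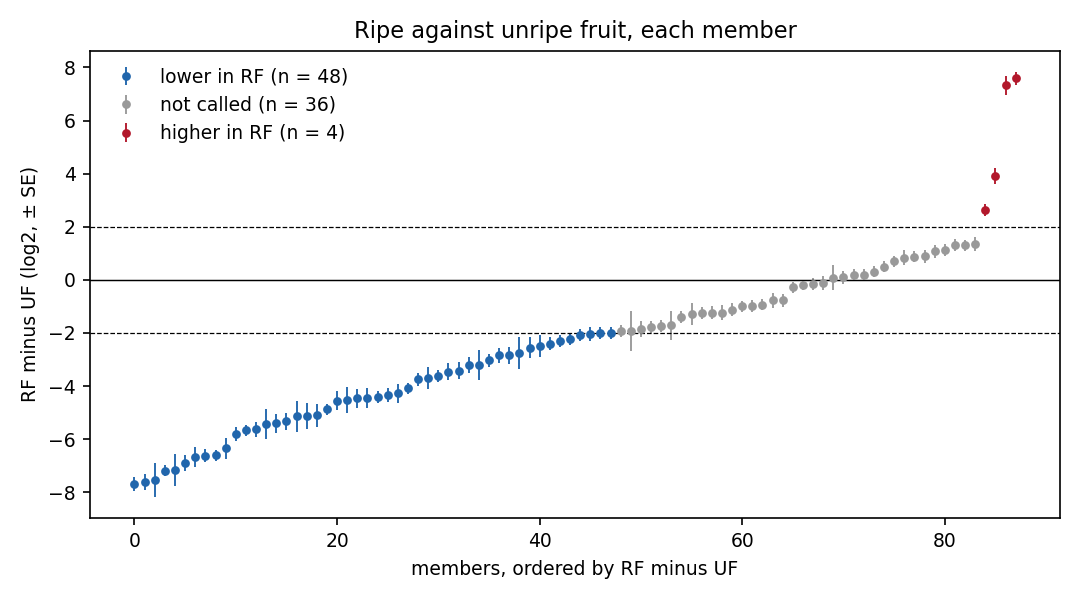
Members are ordered by RF minus UF on the x axis. The y axis holds the log2 difference and its standard error from the limma fit (2 arrays each, spread pooled over groups). Dashed lines lie at -2 and 2. The 48 members lower in RF span -7.68 to -2.003, the 36 that did not pass span -1.94 to 1.35, and the 4 higher in RF stand apart at 2.63 to 7.59.

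Members that fell in RF had a median difference of -4.43, and 28 of the 48 fell by at least 4 and 10 by at least 6. Their median level was 6.72 in RF and 12.003 in UF, and in 12 of them at least 1 RF array was below the random control, so that for these the size of the fall depends on the background. The 36 that did not pass had a median difference of -0.23, with 12.40 in RF and 12.49 in UF. In the leaves the medians of these groups lay close together, with on-year differences of -2.93 for members that fell in RF and -2.98 for those that did not pass, and off-year differences of -1.46 and -1.42. Leaving out 1 fruit array ended the call of 6 of the 48. GO243415_1, of -2.75, was at -1.56 without the first RF array, and at -2.81 and -2.70 without the first and the second UF array its adjusted p was 0.0545 and 0.0592. GO243147_1 (-2.01) was at -1.80 without the first RF and -1.999 without the second UF array, GO243216_1 (-2.003) at -1.76 without the first RF and -1.91 without the first UF array, and GO244160_1 (-2.07) at -1.98 without the first RF array. GO244737_1 (-2.03) was at -1.76 without the second RF and -1.92 without the second UF array, and GO245492_1 (-2.55) at -1.87 without the second RF array. Another 5 members passed as lower when 1 RF array was left out, GO243192_1 and GO245635_1 without the first and FL684170_1, GO243323_1 and GO243457_1 without the second. Of the 14 fruitlet-library members 6 fell, and of the 68 from leaves and fruits 42 fell. The share of all olive ESTs of each library that fell was not counted, so no difference between libraries is read from this.

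The largest fall was that of the cutin and trichome EST GO243189_1, at 4.70 and 5.16 in RF against 12.57 and 12.65 in UF (-7.68 ± 0.27, SE, n = 2 arrays each, limma adjusted p = 7.81e-07). Both its RF values were below the random control. GO245436_1, of unknown process, followed with 6.02 and 5.13 in RF against 13.13 and 13.28 in UF (-7.63 ± 0.30). GO243302_1 had 7.36 and 4.87 in RF against 13.63 and 13.65 in UF (-7.52 ± 0.64), with RF arrays further apart than those of most members. In all 3 the groups did not overlap, and at least 1 RF value lay below the random control.

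Of the 12 lipid, cutin and wax members 9 fell in RF and 0 were higher, with a median of -3.95. Of the 22 other olive ESTs of that list 17 fell and 0 were higher, with a median of -4.53. GO243798_1, of cuticle development, had 6.62 and 6.46 in RF against 13.76 and 13.70 in UF (-7.19 ± 0.20, SE, n = 2 arrays each, limma adjusted p = 6.92e-07). Others that fell were GO244894_1 (-5.66), GO244589_1 (-5.62), GO243678_1 (-4.28) and GO244883_1 (-3.62). Of the 4 wax-annotated ESTs, GO243362_1 (-2.30) and GO243147_1 (-2.01) fell, and GO243584_1 and FN998464_1 did not pass, at -1.12 and -1.24. The lists were taken from the study's tables of leaf comparisons, in which RF and UF had no part. They hold ESTs picked for differences among leaves, so that their counts in fruit do not stand for olive ESTs at large.

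The water transport members split by annotation. Of the pair with the urea transport term, GO244854_1 had 7.30 and 4.99 in RF against 13.31 and 13.33 in UF (-7.17 ± 0.60, limma adjusted p = 8.52e-05), and GO244599_1 had 7.23 and 5.88 against 12.93 and 12.86 (-6.34 ± 0.39, adjusted p = 1.36e-05). Both were far lower in RF with no overlap, and the pair with the abscisic acid term was not. The second RF value of GO244854_1 was below the random control, so that the size of its fall depends on the background. The ESTs of each pair shared all terms and may be of the same transcript. GO245690_1 had 13.16 and 13.30 in RF against 12.43 and 12.26 in UF (0.88 ± 0.23, adjusted p = 0.0199), and GO245680_1 had 14.56 and 14.70 against 13.93 and 13.94 (0.69 ± 0.21, adjusted p = 0.0349), both short of the required difference. Whether the pairs' differences differ was not tested. Of the 4 other olive ESTs on water transport 1 fell and 0 were higher.

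The 3 triterpenoid synthesis members, which shared all terms and may be ESTs of the same transcript, all fell in RF. GO244544_1 had 9.85 and 10.55 in RF against 14.51 and 14.54 in UF (-4.32 ± 0.26, limma adjusted p = 1.19e-05), GO243666_1 had 9.22 and 10.42 against 14.24 and 14.33 (-4.47 ± 0.35), and GO244699_1 had 9.33 and 9.23 against 14.13 and 14.18 (-4.88 ± 0.21). In UF they stood above their own juvenile leaf values, and in RF below their own OFF-M values but above the random control. Of the 10 other olive ESTs on terpenoids and sterols 4 fell and 0 were higher.

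Of the 6 protein folding and heat members 2 fell, and all 6 had lower means in RF; the 3 other olive ESTs of that list all fell. FL684184_1 had 10.31 and 11.20 in RF against 13.96 and 13.96 in UF (-3.20 ± 0.31, limma adjusted p = 0.000185), and GO244160_1 fell by 2.07. The 3 that shared all terms did not pass, at -1.74 for FL683700_1, -1.25 for FL684306_1 and -0.997 for FL684093_1, and the last was 0.0115 with arrays centred on olive medians. FL684170_1 had 5.21 and 7.46 in RF against 8.35 and 8.20 in UF, and did not pass (-1.94 ± 0.75, adjusted p = 0.0772). Its first RF value was below the random control.

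**Figure D4:**
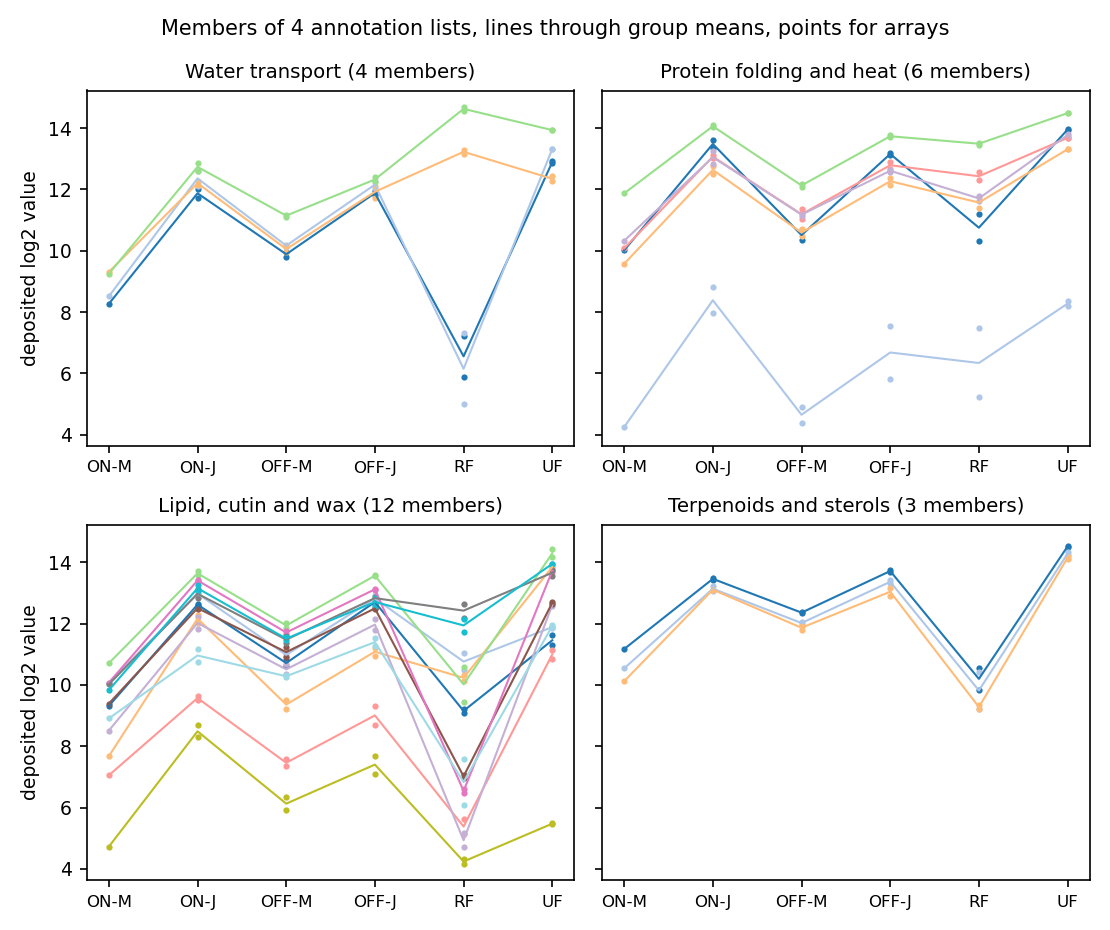
Deposited log2 values of the members of 4 annotation lists by group, mature before juvenile leaf in each year and RF before UF, with a line per EST through its group means and a point per array. All lines dip in ON-M and OFF-M, and in RF they spread: triterpenoid ESTs reach 9.22 to 10.55 and 2 water transport ESTs 4.99 to 7.30, while the other 2 water transport ESTs stay at 13.16 to 14.70. The value of 4.99 is below the random control.

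Among the 7 cell wall and trichome members 5 fell and 0 were higher, and among the 13 other olive ESTs of that list 5 fell and 1 rose. GO243690_1, of pectin and cellulose metabolism, had 7.33 and 5.98 in RF against 13.37 and 13.30 in UF (-6.69 ± 0.38, limma adjusted p = 8.88e-06). GO245517_1, with terms for transcription and secondary wall formation, had 7.51 and 6.05 in RF against 10.43 and 10.53 in UF (-3.71 ± 0.41, adjusted p = 0.000406). The mucilage ESTs did not pass. FN998508_1 had 14.22 and 14.35 in RF against 14.07 and 14.15 in UF (0.17 ± 0.22, adjusted p = 0.565), and FN998379_1 differed by 0.09 ± 0.47 (adjusted p = 0.9), with overlapping arrays.

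Of the 10 defense and biotic stress members 3 passed as lower and 0 as higher, against 14 and 0 of the 26 other olive ESTs on that list. GO243156_1 had 14.75 and 14.72 in RF against 13.34 and 13.51 in UF (1.31 ± 0.21, limma adjusted p = 0.00228), short of the required difference but past it, at 2.32, with arrays centred on olive medians. GO244678_1, with the same terms, differed by 1.07 ± 0.23, and by 2.08 when centred. Among single members, GO244946_1 of metal ion transport fell by 5.42, with 4.39 and 6.58 in RF against 10.91 and 10.90 in UF. Its first RF value was below the random control. The response to stress ESTs were unlike each other: GO245628_1 fell by 5.41, and GO243464_1 was level at 13.35 and 13.38 in RF against 13.56 and 13.56 in UF (-0.19 ± 0.20, adjusted p = 0.484). GO244186_1 and GO244188_1 did not pass, at 0.20 ± 0.22 and -0.27 ± 0.20.

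In the remaining lists the members were few. Of the 6 with oxidation-reduction terms 3 fell and 1 rose, and 25 of the 44 other olive ESTs of that list fell and 1 rose. Of the 6 with proteolysis terms 2 fell, and 3 of the 7 others fell and 1 rose. Of the 5 with hormone terms 2 fell, and 7 of the 18 others fell and 0 rose. Flavonoid terms were on 2 members, of which 1 fell (GO244589_1) and 1 rose, and of the 4 others 1 fell and 2 rose. Ion transport and amino acid terms were on 2 members each, of which 1 fell in each, where 1 of 54 and 6 of 15 others fell. Protein kinase terms were on 2 members, of which 1 rose, and 1 of the 3 others fell. The 1 member on transcription and the 1 on cell growth and division fell, where 4 of 8 and 6 of 11 others did, and the photosynthesis member GO244424_1 did not pass, at 8.49 and 8.47 in RF against 10.20 and 10.34 in UF (-1.79 ± 0.22).

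The leading leaf members of unknown process took different courses in fruit. FL683438_1 had 10.88 and 11.55 in RF against 13.58 and 13.65 in UF and fell by 2.40. GO245492_1 had 7.93 and 6.57 in RF against 9.80 and 9.81 in UF (-2.55 ± 0.40, limma adjusted p = 0.00212). GO243932_1 was near the floor in both fruits, at 6.72 and 6.69 in RF against 6.22 and 5.52 in UF (0.84 ± 0.29, adjusted p = 0.0567).

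At the required difference 4 members (4.55%) rose in RF, against a background of 3.73% of all olive ESTs. With a log2 difference of at least 1 it was 9 members and 847 of the 5543 olive ESTs. By the adjusted p alone it was 12 members and 1153 olive ESTs. GO244011_1, whose terms were signal transduction and protein phosphorylation, had 12.54 and 12.79 in RF against 5.15 and 5.01 in UF (7.59 ± 0.24, limma adjusted p = 6.97e-07), and its UF values were below the random control, so that the size of its rise depends on the background. In leaves it read 8.74 in ON-M against 11.11 and 11.41 in ON-J, and 9.85 and 9.85 in OFF-M against 11.20 and 10.76 in OFF-J. FN997922_1, the member with the lowest leaf signal, had 14.76 and 14.76 in RF against 7.53 and 7.34 in UF (7.32 ± 0.35, adjusted p = 3.23e-06).

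FL684182_1, annotated with flavonoid synthesis, the pathway of flavonols and anthocyanin pigments, and with oxidation-reduction, had 15.68 and 15.68 in RF against 11.66 and 11.86 in UF (3.92 ± 0.31, limma adjusted p = 6.07e-05). GO245524_1, of unknown process, had 12.86 and 13.06 in RF against 10.30 and 10.35 in UF (2.63 ± 0.22, adjusted p = 7.75e-05). None of the 4 had overlapping groups. In RF all 4 stood above every leaf value of their own. Of the 48 members that fell in RF, 42 had a lower mean in RF than in OFF-M. Over all olive ESTs, 42.6% had a higher mean in RF than in OFF-M. The members were split by their RF values, which bears on both counts, and the same counts over all olive ESTs called in RF were not made.

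Set beside the leaves as values only, UF had more signal than OFF-J in 58 of the 88 members, against 50.7% of all olive ESTs. OFF-J was the leaf of the same month and year, but of the off year, where the fruits came from a bearing tree. Organ and bearing therefore cannot be told apart here. The median of UF minus OFF-J was 0.62 (range -5.91 to 3.65) against 0.01 over all olive ESTs. GO244011_1 was the lowest of these, being near the floor in UF. RF and OFF-M differed in bearing too, and in month (October and November). The median of RF minus OFF-M was -0.55 (range -6.38 to 9.56) against -0.25 over all olive ESTs, and 39 members had more signal in RF, where 42.6% of all olive ESTs did. FN997922_1 had the highest of these differences. In 9 of the 12 groups of ESTs with identical terms every EST had the same call in fruit, with not passing counted as a call. Not passing alike did not mean a like difference: of the proteolysis pair, GO243192_1 was at -1.84 and GO244889_1 at 0.30. How often unrelated ESTs shared a call was not counted, so no agreement is read from this.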

How the data were processed

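RNA of leaves and fruits was measured on a NimbleGen one-colour array. The authors quantified the scans in DEVA, subtracted background, applied quantile normalization and RMA, and deposited log2 values per array, which were used as deposited. Quantile normalization fixes each array's overall distribution over olive and poplar sets together, so that a shift of all olive ESTs remains in the values. No version of RMA was given in the sources used. A deposited table of averaged log2 values equalled the array means. Each array held 54616 probe sets; without the random control 54615 were tested, 5543 of olive and 49072 of poplar. Depth is not defined for arrays, and their number limits the precision. The table of the whole series held 889 empty lines, which were left out.

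Group labels came from the sample titles. Array numbers within a sample follow the order of its files and only name an array. limma 3.58.1 in R 4.3.3 fitted 6 group means over 11 arrays (5 residual degrees of freedom, prior 3.67), with RF minus UF tested two-sided and called where the p adjusted by Benjamini-Hochberg was under 0.05 and the log2 difference reached 2. This replaced the methods' t-test, which was kept as an alternative. Tested on simulated data for RF minus UF over 54615 probe sets, with 50 olive ESTs changed at each size, it recovered 48 changes of -4, 41 of -2.5, 43 of 2.5 and 47 of 4, with 6 calls among unchanged sets. The simulated arrays of a probe set all had the same spread. Measured RF arrays spread more than UF arrays, so the simulation does not give the error rate of the calls. Python 3.11.15 with pandas 2.3.3 and matplotlib 3.10.9 did the rest.

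Members, lists, tests and alternatives were chosen with earlier results of these data known. The 17 lists were words searched in the process terms of 702 transcripts in the study's tables, of which 698 matched, 531 of them olive ESTs. They cover cell wall and trichome, lipids with cutin and wax, water transport, protein folding and heat, defense, hormones, transcription, flavonoids, terpenoids and sterols, proteolysis, photosynthesis, ion transport, oxidation-reduction, amino acids, carbohydrates, cell growth and protein kinases. Named ESTs were the 6 members with the largest smaller difference, the 30 leading ones with a process, the 5 largest RF minus UF calls in each direction (4 existed upward), 3 on each side of the threshold, the brightest and dimmest in juvenile leaves, and the 3 largest and 3 smallest gaps between years. GO245680_1, GO244699_1, GO243147_1 and GO244424_1 complete small lists, and members whose call changed without 1 fruit array are also named; these were chosen after their values were seen. Alternatives were 3 other normalizations, other sets of arrays, thresholds, filters, priors and tests, and replicate number as a block.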

Additional observations from a re-analysis of the deposited data

How the results depend on the processing

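Of the counts of members, 45 to 63 were lower in RF under the alternatives other than olive-median centring (36, all among the 48) and the methods' t-test with Benjamini-Hochberg adjustment. That t-test called 0 lower and 0 higher, against 45 lower and 4 higher at its unadjusted p under 0.05 and 48 and 4 by limma; the cause was not tested. The number higher was 9 with olive-median centring, 9 at a log2 difference of at least 1 and 12 at the adjusted p alone, the last 2 by construction. Leaving out each fruit array in turn gave 45 to 49 lower, of which 44 to 46 were among the 48, and 4 higher each time, and medians of RF minus UF of -2.25 to -2.12. Olive-median centring moved that median to -1.14, the median of ON-M minus ON-J to -2.27 and that of OFF-M minus OFF-J to -1.85 and, added after the data were seen, that of ON-M minus OFF-M to -0.47, where leaving out each leaf array gave -3.01 to -2.87 for the on-year and -1.54 to -1.34 for the off-year difference of mature from juvenile leaves. Under the same rule 114 ESTs were members with olive-median centring, 76 of them among the 88, and 38 with both differences at least 1.5. Leaving out each leaf array gave 71 to 104 members, a span of at least 1.5 or 2.5 gave 110 or 69, and dropping the ON-M condition gave 112. Across named members and alternatives for RF minus UF, 681 values kept their direction and side of the threshold, 44 lost the call, 22 gained one and 5 changed sign. Those 5, none of them called, were FL684093_1 (0.0115), GO243169_1 (0.24), GO243464_1 (0.82) and GO244188_1 (0.74) with olive-median centring, and FN998379_1 (-0.53 without the second RF array and 0.70 without the first). Array numbers did not pair the fruit arrays (r of deviations 0.02), and with the number as a replicate block 48 members were lower and 4 higher, the same calls.

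The counts rest on 2 arrays a group and on 1 ON-M array, whose level sets every on-year difference. Mature values of the dimmest ESTs and RF values of 14 members reached below the random control, where a difference is limited by background.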
